A study of Rattus norvegicus with 36 samples.

Results

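Cyclic nucleotide signalling genes are the 43 genes of the deposited count table, of 27308 in all, whose names mark an enzyme that makes or degrades cAMP or cGMP, a kinase subunit that responds to them, or a synthase of nitric oxide (NO). They comprised 19 phosphodiesterases, 10 adenylyl cyclases, 7 kinase subunits, 6 guanylyl cyclases and 1 NO synthase. The set was chosen with earlier results of these data known, so the shares of called genes below are descriptive. Its members were taken by gene name, and no measured value enters that rule. 34 of them had enough counts to be tested, and 9 did not. Relatives without a row under these names, among them Nos1, Nos2, Gucy1a1, Gucy1a2 and Pde4d, were not analysed here. Of the 27308 genes, 15145 had no name in the table, so any relatives among them could not be found. The shares over all genes given below include unnamed genes.

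The genes were measured by RNA sequencing of lung from rats of the huSlc39a12 knock-in line, made on the Sprague Dawley background with CRISPR-Cas9, in which the human form of Slc39a12 takes the place of the rat gene. Slc39a12 encodes the zinc importer ZIP12, and the antibody APL-9796 is directed against it. The 3 arms were hypoxia with APL-9796, hypoxia with control IgG, and normoxia, each with 6 male and 6 female libraries, 36 in all. All animals carried the knock-in and were adults of 200 to 240 g. Hypoxic animals breathed 10% oxygen at normal pressure for 2 weeks and received APL-9796 or IgG at 10 mg/kg by intraperitoneal injection every 3 days, with the first injection 48 h ahead of hypoxia. No antibody is named for the normoxic animals, so the effects of hypoxia and of IgG cannot be told apart. Both hypoxic arms were set against the same 12 normoxic libraries, which those comparisons therefore share. The labels do not tie each library to its own animal, so p-values reflect only how far these samples differ from each other, which may be technical.

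Cyclic AMP and cyclic GMP are intracellular messengers that relax vascular smooth muscle. In the pulmonary circulation, endothelial NO synthase makes NO, which crosses into smooth muscle and activates soluble guanylyl cyclase, and the cGMP formed there acts through cGMP-dependent protein kinase. Prostacyclin and adrenergic agonists act on receptors that raise cAMP through adenylyl cyclases and protein kinase A, and phosphodiesterases end both signals. Several drugs for pulmonary hypertension act on these steps, among them sildenafil, which inhibits the enzyme encoded by Pde5a, and stimulators of soluble guanylyl cyclase.

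Library totals ran from 6067593 to 20801302 counts, with a median of 11137784. Slc39a12 itself had 0 counts in its row in every library, which allows up to 0.144 to 0.494 CPM (counts scaled to a common library size) by library. Whether that row would collect human-gene reads was not stated, so it checks nothing. Surfactant and other alveolar type II markers were abundant in all libraries, at a summed 12455 to 41656 CPM. A few libraries stood apart. Female normoxia 9 held the highest sum of alveolar type II markers (41656 CPM) and the lowest sums of smooth muscle (112 CPM) and cardiac (12.1 CPM) markers of the normoxic arm, and male IgG 6 held the highest sums of cardiac (1118 CPM) and adipocyte (585 CPM) markers. Male APL-9796 5 held the highest sum of skeletal muscle markers (2433 CPM). Male APL-9796 4 was the lowest library of its arm for 18 of the 34 tested members, and female IgG 11 was the lowest of its arm for 14. The names of the read files put the libraries in 3 groups, taken here as sequencing runs by what was read as library pool and flow cell. No label states the run. Run A held 10 APL-9796, 7 IgG and 9 normoxic libraries, but only 2 of the 6 female IgG libraries.

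Against normoxia, the hypoxic arms had more transcript of Nos3, of 1 guanylyl cyclase and of 3 adenylyl cyclases, no called change in the kinase subunits, and changes of either direction among the phosphodiesterases. A gene was called where the Benjamini-Hochberg adjusted p over all 15570 genes tested with edgeR's quasi-likelihood test (FDR) was under 0.05. In hypoxia with APL-9796 against normoxia, 9 members rose and 3 fell (35.3% of the 34 tested), against a background of 18% of all genes called in either direction (9.08% higher and 8.93% lower). In hypoxia with IgG against normoxia, 7 members rose and 2 fell (26.5% of the 34 tested), against a background of 12.5% (6.31% higher and 6.19% lower). The median log2 fold change of the tested members was 0.06 with APL-9796 and 0.07 with IgG, beside -0.02 over all genes in each comparison. Between APL-9796 and IgG in hypoxia, 0 members and 0% of all genes were called.

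By class, Nos3, the only NO synthase found by name, rose in both hypoxic arms. Of 3 guanylyl cyclases tested, 1 rose in each hypoxic arm and 0 fell. Of 9 adenylyl cyclases, 3 rose and 1 fell with APL-9796, and 3 rose and 0 fell with IgG. Of 6 kinase subunits, 0 were called in either comparison. Of 15 phosphodiesterases, 4 rose and 2 fell with APL-9796, and 2 rose and 2 fell with IgG. In the 26 libraries of run A alone, the IgG comparison called 3 members as higher and 1 as lower, and over all genes 464 of 16128 as higher and 261 as lower, also fewer than with all libraries.

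**Figure D1:**
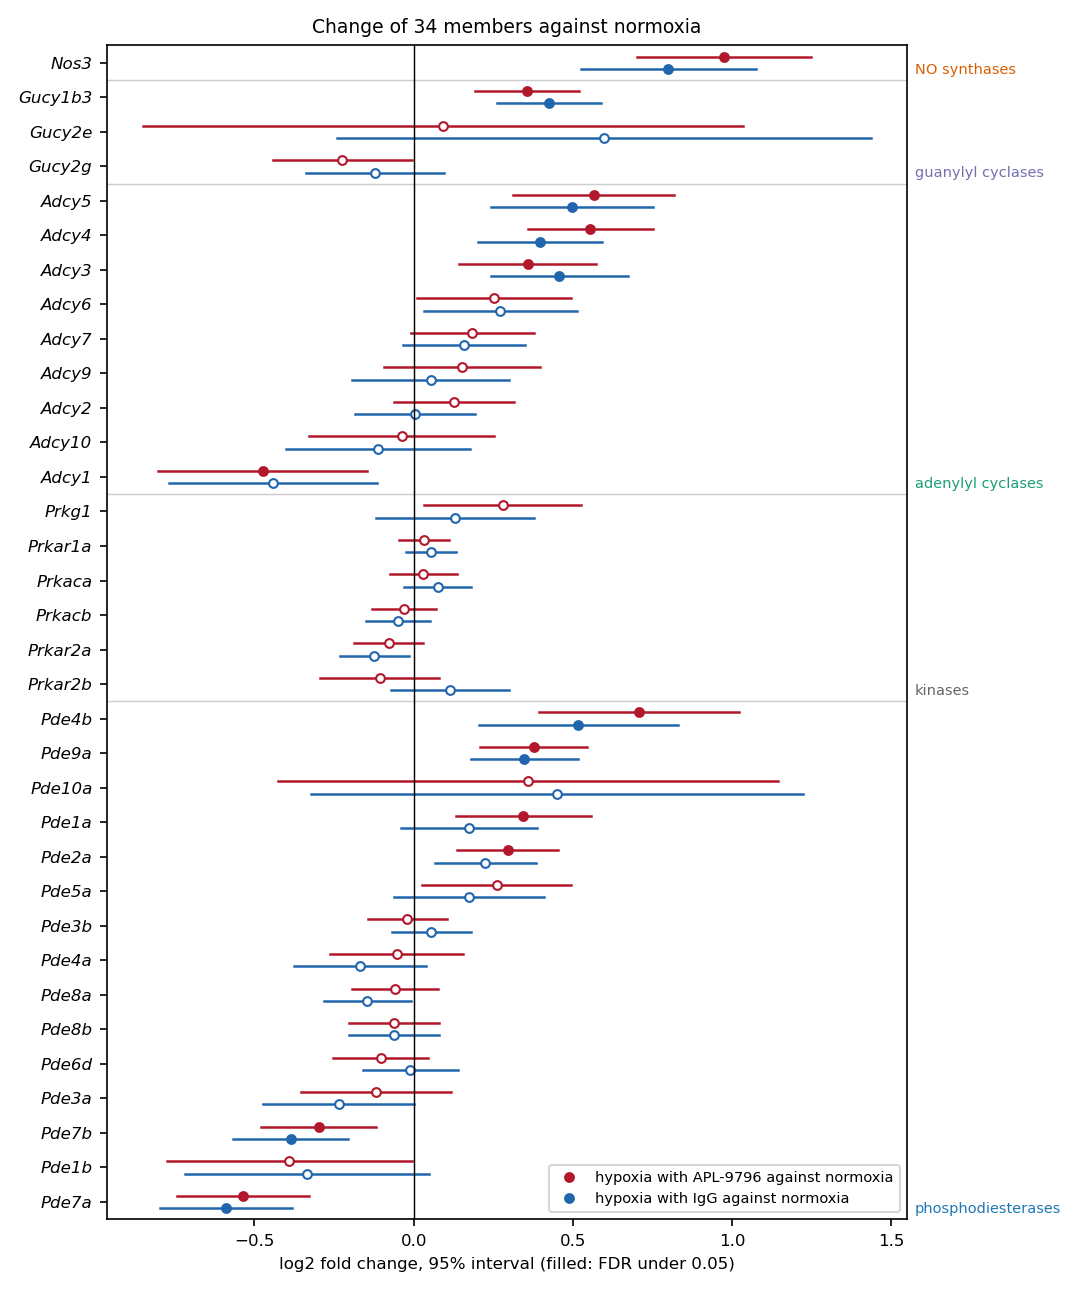
Log2 fold change (x axis) of the 34 tested members (rows, by class) in hypoxia with APL-9796 (red, upper of each pair) and hypoxia with IgG (blue) against normoxia, with 95% intervals from edgeR. Filled points passed an FDR of 0.05. Nos3 lies farthest to the right among the called members, at 0.97 and 0.80, Pde7a farthest to the left, at -0.54 and -0.59, and all 6 kinase rows are open.

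Nos3, which encodes endothelial NO synthase, showed the largest change of any called member. Its level ran from 42.3 to 92.7 CPM with APL-9796 (median 61.0), from 38.6 to 85.4 CPM with IgG (median 59.0) and from 12.7 to 49.5 CPM in normoxia (median 35.2). Every hypoxic library lay above the normoxic mean of its own sex, although the arms overlapped: 9 of 12 APL-9796 and 8 of 12 IgG libraries were above the highest normoxic library. The mean level was 65.2 ± 18.1 CPM with APL-9796, 58.0 ± 14.1 CPM with IgG and 33.4 ± 10.8 CPM in normoxia (SD, n = 12 libraries each). The log2 fold change against normoxia was 0.97 ± 0.14 with APL-9796 (SE; edgeR FDR 1.85e-06; 1.97-fold) and 0.80 ± 0.13 with IgG (SE; edgeR FDR 5.67e-05; 1.74-fold).

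Nos3 is made mainly by endothelial cells, whose markers did not move in 1 direction. Of 9 endothelial markers, 4 rose and 2 fell with APL-9796, and 4 rose and 3 fell with IgG. Pecam, Cdh5, Tie1 and Egfl7 rose in both arms, Egfl7 most, by 0.72 with APL-9796 and 0.71 with IgG on the log2 scale. Eng and Ptprb fell in both arms, and Erg fell with IgG. The sum below therefore joins markers that moved in either direction. Their summed level was 4276 to 5660 CPM with APL-9796 (median 4939), 4054 to 5525 CPM with IgG (median 4567) and 3439 to 5213 CPM in normoxia (median 4769). Per 1000 CPM of these markers, Nos3 stood at 7.91 to 18.7 CPM with APL-9796 (median 12.8), 8.32 to 18.5 CPM with IgG (median 11.8) and 3.51 to 10.3 CPM in normoxia (median 7.05). In bulk tissue, more cells of a type and more RNA per cell cannot be told apart, nor can fewer cells and less RNA per cell. Within run A, the log2 fold change of Nos3 was 0.92 with APL-9796 (edgeR FDR 0.00134) and 0.81 with IgG (edgeR FDR 0.019).

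Gucy1b3, now named Gucy1b1, encodes the beta subunit of soluble guanylyl cyclase, the receptor of NO. Its level ran from 105 to 232 CPM with APL-9796 (median 176), from 131 to 242 CPM with IgG (median 179) and from 121 to 179 CPM in normoxia (median 131). The arms overlapped, with 4 APL-9796 and 6 IgG libraries above the highest normoxic library, and the lowest value of all belonged to male APL-9796 4. Against normoxia, the log2 fold change was 0.36 ± 0.08 with APL-9796 (SE; edgeR FDR 0.00173) and 0.43 ± 0.08 with IgG (SE; edgeR FDR 0.000272), and in run A alone it was 0.38 (edgeR FDR 0.0039) with APL-9796 and 0.39 (edgeR FDR 0.0155) with IgG. By sex, 0 of the 3 guanylyl cyclases tested were called in females with IgG (smallest edgeR FDR 0.191), beside 15.5% of all genes. In males with APL-9796, 0 were called (smallest edgeR FDR 0.134), beside 4.19% of all genes. In females with APL-9796 and in males with IgG 1 was called, beside 22.6% and 3.1% of all genes.

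The other guanylyl cyclases tested, Gucy2e and Gucy2g, encode membrane enzymes of the receptor type. Gucy2g, at medians of 13.8 CPM with APL-9796, 13.9 CPM with IgG and 15.7 CPM in normoxia, was not called (edgeR log2 fold change -0.22 with APL-9796, 95% interval -0.44 to -0.01, and -0.12 with IgG, -0.34 to 0.10). Gucy2e had no counts in 1 APL-9796, 1 IgG and 3 normoxic libraries, and its intervals spanned -0.85 to 1.03 with APL-9796 and -0.24 to 1.43 with IgG. Its response was therefore not resolved at this depth. Gucy1b2, Gucy2d and Gucy2f stayed below the filter on low counts.

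The promoter windows of the 3 members below are shown because Nos3, Gucy1b3 and Pde4b, which make NO, make cGMP and degrade cAMP, all rose in both hypoxic arms. Each window holds 250 bases before and 50 bases after the start of the gene, 5′ to 3′ on the gene's strand, from RefSeq on the assembly GRCr8. Nos3 lies at chr4:11706532-11706831 on the minus strand, Gucy1b3 at chr2:169696938-169697237 on the minus strand, and Pde4b at chr5:122028706-122029005 on the plus strand. Capitals mark the core of the hypoxia response element, searched as ACGTG or GCGTG on both strands.
Nos3: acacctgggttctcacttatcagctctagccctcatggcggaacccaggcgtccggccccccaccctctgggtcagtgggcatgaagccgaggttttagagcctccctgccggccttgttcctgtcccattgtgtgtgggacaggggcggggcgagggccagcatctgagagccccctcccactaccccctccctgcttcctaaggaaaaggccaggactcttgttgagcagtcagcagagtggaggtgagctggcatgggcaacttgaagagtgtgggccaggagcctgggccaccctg
Gucy1b3: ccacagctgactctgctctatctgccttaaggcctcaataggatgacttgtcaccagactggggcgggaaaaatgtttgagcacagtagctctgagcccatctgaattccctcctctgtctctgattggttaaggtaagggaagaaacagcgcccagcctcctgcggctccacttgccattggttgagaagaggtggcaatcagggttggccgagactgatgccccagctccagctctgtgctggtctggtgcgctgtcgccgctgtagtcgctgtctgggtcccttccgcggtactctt
Pde4b: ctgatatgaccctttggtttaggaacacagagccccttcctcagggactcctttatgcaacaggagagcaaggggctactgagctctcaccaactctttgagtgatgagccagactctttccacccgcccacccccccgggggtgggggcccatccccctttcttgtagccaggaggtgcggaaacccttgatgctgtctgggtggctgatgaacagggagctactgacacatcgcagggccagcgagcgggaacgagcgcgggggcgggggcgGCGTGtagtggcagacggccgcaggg
The core occurred once in the Pde4b window, starting 24 bases after the gene's start, and not in the windows of Nos3 or Gucy1b3. RefSeq windows were matched for 30 of the 43 members. The core was in 15 of these 30 (50%) and in 41.6% of all 33469 windows of the table. Of the 5 members higher with IgG that had a window, Pde4b was the 1 with a match. The palindromic cAMP response element, TGACGTCA, was in 0 of 30 members' windows and in 1.83% of all windows, and its shorter core TGACG on either strand was in 7 of 30 (23.3%) and in 21.2% of all windows. Such matches describe the letters in these windows and not binding.

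**Figure D2:**
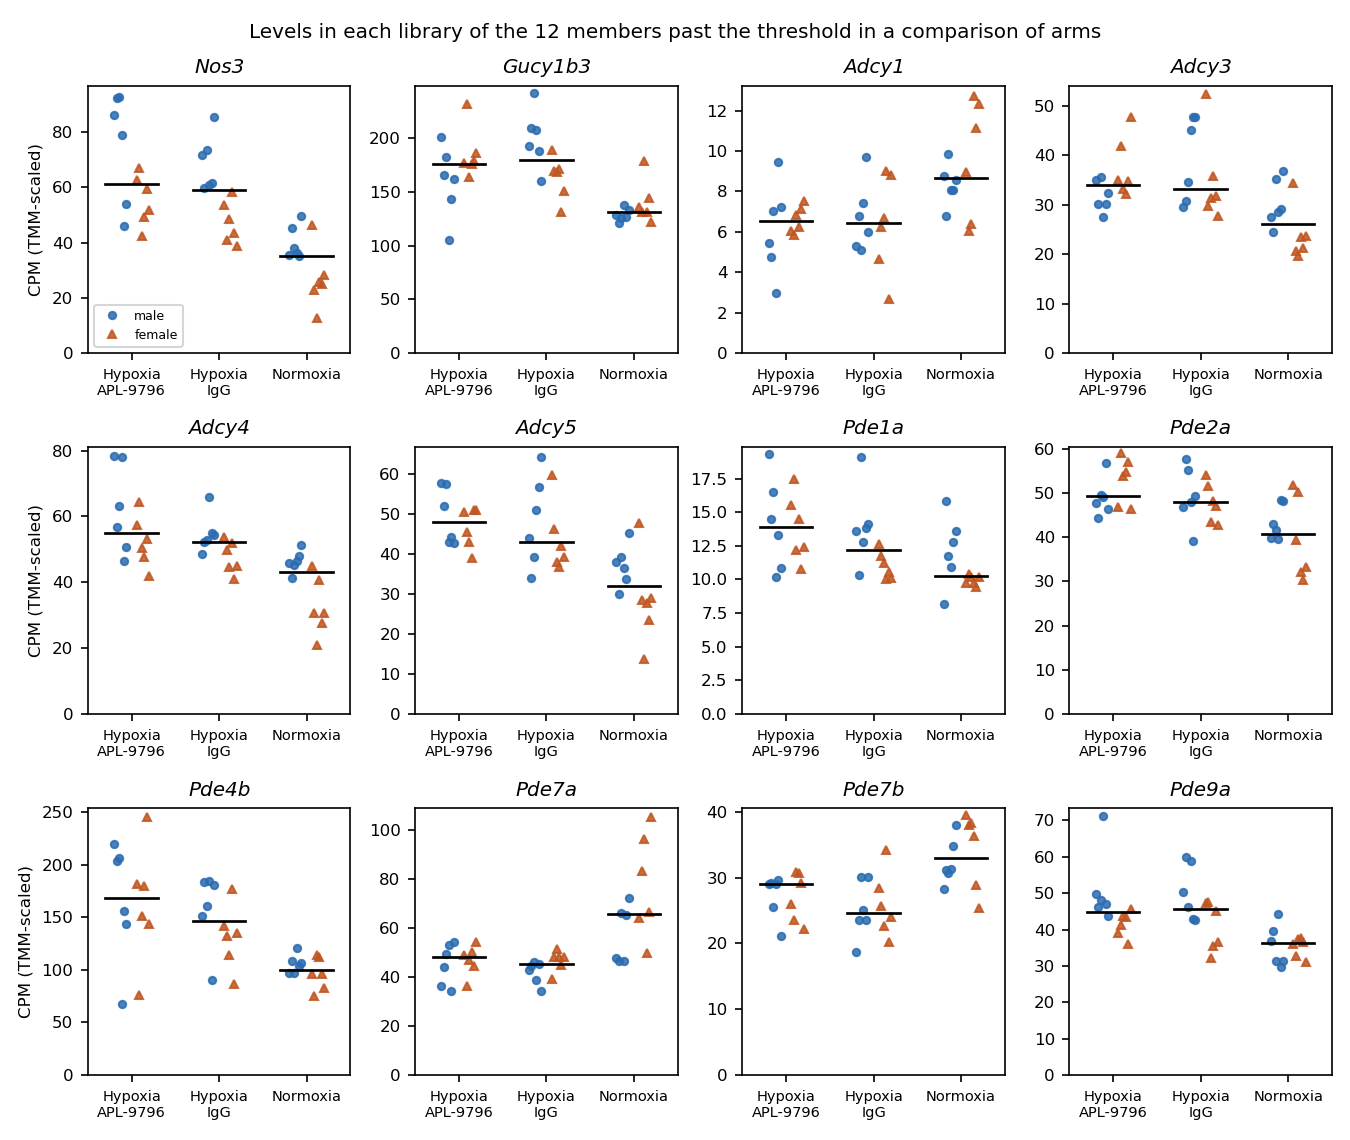
Level in each library, in CPM with TMM-scaled library sizes (y axis from 0), of the 12 members called in a comparison of arms. Columns are hypoxia with APL-9796, hypoxia with IgG and normoxia; circles are males, triangles females, and the bar is the median of 12 libraries. Adcy1, Pde7a and Pde7b sit lower in the hypoxic arms, the other 9 higher, and the arms overlap in every panel.

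Among the adenylyl cyclases, which make cAMP from ATP, Adcy3, Adcy4 and Adcy5 rose in both hypoxic arms with the sexes weighted equally. Within females, 4 of 9 adenylyl cyclases were called higher with APL-9796 and 3 with IgG, beside 10.1% and 7.23% of all genes. Within males, 0 were called in either arm, beside 2.79% and 1.88% called higher. The difference between the sexes in the response to hypoxia with IgG was not called for any of them. Adcy4, an isoform that G protein beta-gamma subunits stimulate, ran from 42.1 to 78.2 CPM with APL-9796 (median 55.0), from 40.9 to 65.8 CPM with IgG (median 52.2) and from 20.9 to 51.4 CPM in normoxia (median 43.2). In each hypoxic arm 7 of 12 libraries exceeded the highest normoxic library, so the arms overlapped. Adcy4 had a log2 fold change of 0.55 ± 0.10 with APL-9796 (SE; edgeR FDR 6.43e-05) and 0.40 ± 0.10 with IgG (SE; edgeR FDR 0.00424).

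Adcy5, which calcium inhibits and which is known from heart and smooth muscle, ran from 39.0 to 57.8 CPM with APL-9796 (median 47.9), from 34.03 to 64.1 CPM with IgG (median 43.0) and from 13.7 to 47.7 CPM in normoxia (median 31.9). In all, 6 APL-9796 and 4 IgG libraries lay above the highest normoxic library. Its log2 fold change was 0.56 ± 0.13 with APL-9796 (SE; edgeR FDR 0.0014) and 0.50 ± 0.12 with IgG (SE; edgeR FDR 0.0058). Smooth muscle markers moved with it: 5 of the 5 markers tested (Cnn1, Myl9, Lmod1, Des and Myocd) rose in each hypoxic arm, and their summed level was 316 to 659 CPM with APL-9796 (median 468), 329 to 530 CPM with IgG (median 412) and 112 to 341 CPM in normoxia (median 279.9). Cardiac markers did not pass the test, at 96.9 to 479 CPM with APL-9796, 79.3 to 1118 CPM with IgG and 12.1 to 292 CPM in normoxia. The part of either tissue in the result was not tested.

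Adcy3, a calmodulin-responsive isoform best known from olfactory neurons, ran from 27.5 to 47.7 CPM with APL-9796 (median 33.9), from 27.7 to 52.3 CPM with IgG (median 33.2) and from 19.6 to 36.7 CPM in normoxia (median 26.05). Its arms overlapped more, with 2 APL-9796 and 4 IgG libraries above all normoxic ones. Its log2 fold change was 0.36 ± 0.11 with APL-9796 (SE; edgeR FDR 0.0163) and 0.46 ± 0.11 with IgG (SE; edgeR FDR 0.00263). Without female normoxia 8 and 9, Adcy3 missed the threshold with APL-9796 (0.32, edgeR FDR 0.0524) and kept it with IgG (0.42, edgeR FDR 0.00918).

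In run A alone the 3 risen cyclases kept their direction. With APL-9796, Adcy4 (0.45, edgeR FDR 0.0114) and Adcy5 (0.55, edgeR FDR 0.0229) kept their call and Adcy3 did not (0.34, edgeR FDR 0.0571). With IgG, Adcy3 (0.32, edgeR FDR 0.206), Adcy4 (0.36, edgeR FDR 0.136) and Adcy5 (0.35, edgeR FDR 0.311) all missed the threshold there. With the run as a term in the model of all libraries, each kept its call in both comparisons.

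Adcy1, a calcium-stimulated isoform best known from neurons, was the cyclase that fell. It ran from 2.98 to 9.46 CPM with APL-9796 (median 6.53), from 2.67 to 9.69 CPM with IgG (median 6.45) and from 6.04 to 12.7 CPM in normoxia (median 8.66). In each hypoxic arm 5 of 12 libraries lay below the lowest normoxic library. The log2 fold change was -0.47 ± 0.16 with APL-9796 (SE; edgeR FDR 0.0371), while the value with IgG was -0.44 ± 0.16 (SE; edgeR FDR 0.065). The call with APL-9796 did not hold in 14 of 36 leave-one-out fits, and its FDR reached 0.0762 over all alternatives tried with edgeR, DESeq2 and limma.

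The other 5 adenylyl cyclases tested were not called, with log2 fold changes from -0.04 (Adcy10) to 0.25 (Adcy6) with APL-9796 and from -0.11 (Adcy10) to 0.27 (Adcy6) with IgG. Adcy6, the close relative of Adcy5, had medians of 107 CPM with APL-9796, 108 CPM with IgG and 92.6 CPM in normoxia. Its 95% interval ran from 0.01 to 0.49 with APL-9796 and from 0.03 to 0.51 with IgG (edgeR FDR 0.136 and 0.133). Female normoxia 9 was the lowest normoxic library for Adcy3, Adcy4, Adcy5, Adcy6, Adcy7, Adcy9 and Nos3. Adcy8 stayed below the filter.

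No kinase subunit was called. Prkaca and Prkacb encode catalytic subunits of protein kinase A, and Prkar1a, Prkar2a and Prkar2b encode regulatory subunits that hold the enzyme inactive until cAMP binds. Prkaca had medians of 41.3 CPM with APL-9796, 43.9 CPM with IgG and 42.8 CPM in normoxia. Its log2 fold change had a 95% interval of -0.07 to 0.14 with APL-9796 and of -0.03 to 0.18 with IgG by edgeR. Prkacb had medians of 116 CPM with APL-9796, 113 CPM with IgG and 117 CPM in normoxia, with intervals of -0.13 to 0.07 and -0.15 to 0.05. All of these bounds for Prkaca and Prkacb are smaller in size than 0.30, the smallest log2 fold change of a called member against normoxia. That size depends on what passed the threshold in these data, and smaller changes remain possible. Of the tested members, Prkar1a varied least, with a median coefficient of variation within groups of 5.20%, followed by Prkacb (6.34%), Prkar2a (7.38%) and Prkaca (7.62%).

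Prkg1 encodes cGMP-dependent protein kinase, which carries the relaxing signal of NO in smooth muscle. Its level ran from 6.27 to 15.9 CPM with APL-9796 (median 13.1), from 5.58 to 14.3 CPM with IgG (median 11.7) and from 8.63 to 12.95 CPM in normoxia (median 10.7). Against normoxia, the log2 fold change was 0.28 with APL-9796 (95% interval 0.03 to 0.53; edgeR FDR 0.107) and 0.13 with IgG (-0.12 to 0.38; edgeR FDR 0.532). Male APL-9796 4 was the lowest library of its arm, and without it Prkg1 was called with APL-9796 at 0.35 ± 0.11 (SE; edgeR FDR 0.0226). In run A alone, which does not hold that library, the value was 0.36 (edgeR FDR 0.023). With APL-9796, Prkg1 was called in only 3 of 11 alternatives, run A among them, and in only 2 of 36 leave-one-out fits. Its relative Prkg2 had only 11 counts over the 12 APL-9796 libraries, 20 over the IgG libraries and 12 over the normoxic libraries.

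Phosphodiesterases moved in either direction, and the members that moved differed in the messenger they degrade. Pde4b, a cAMP-specific enzyme of leukocytes and other cells, ran from 67.3 to 245 CPM with APL-9796 (median 168), from 86.3 to 184 CPM with IgG (median 146) and from 75.3 to 120.2 CPM in normoxia (median 99.99). In 10 APL-9796 and 9 IgG libraries the level exceeded the highest normoxic library, while male APL-9796 4, female APL-9796 8, male IgG 5, female IgG 9 and female IgG 11 lay within the normoxic range or below it. Its log2 fold change was 0.71 ± 0.15 with APL-9796 (SE; edgeR FDR 0.00127) and 0.52 ± 0.15 with IgG (SE; edgeR FDR 0.022). Run A alone gave 0.70 (edgeR FDR 0.00146) with APL-9796 and 0.63 (edgeR FDR 0.0177) with IgG.

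Pde9a, which degrades cGMP, also rose. It ran from 36.1 to 71.3 CPM with APL-9796 (median 44.8), from 32.2 to 59.8 CPM with IgG (median 45.7) and from 29.8 to 44.3 CPM in normoxia (median 36.3), so the arms overlapped. The log2 fold change was 0.38 ± 0.08 with APL-9796 (SE; edgeR FDR 0.00129) and 0.35 ± 0.08 with IgG (SE; edgeR FDR 0.00345). Within run A it was 0.30 (edgeR FDR 0.0125) with APL-9796 and 0.26 (edgeR FDR 0.103) with IgG.

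Pde7a and Pde7b, a pair of cAMP-specific enzymes, fell in both hypoxic arms with the sexes weighted equally. In females alone, 3 of 15 phosphodiesterases were called lower with APL-9796 and 2 with IgG, beside 12.5% and 8.27% of all genes. In males alone, 0 were called lower in either arm, beside 1.4% and 1.22% of all genes. The sexes did not differ in the response to hypoxia with IgG past the threshold for any phosphodiesterase. Pde7a ran from 34.4 to 54.4 CPM with APL-9796 (median 48.0), from 34.3 to 51.5 CPM with IgG (median 45.2) and from 46.5 to 105 CPM in normoxia (median 65.8). Every hypoxic library lay below the normoxic mean of its own sex, and 5 APL-9796 and 8 IgG libraries lay below the lowest normoxic library. Pde7a had a log2 fold change of -0.54 ± 0.10 with APL-9796 (SE; edgeR FDR 0.00025) and -0.59 ± 0.10 with IgG (SE; edgeR FDR 8.34e-05). Restricted to run A, it was -0.49 (edgeR FDR 0.0103) with APL-9796 and -0.50 (edgeR FDR 0.0464) with IgG.

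Pde7b ran from 21.2 to 30.8 CPM with APL-9796 (median 29.04), from 18.7 to 34.2 CPM with IgG (median 24.6) and from 25.4 to 39.6 CPM in normoxia (median 33.1). The arms overlapped, with 3 APL-9796 and 7 IgG libraries below all normoxic ones. Against normoxia, the log2 fold change was -0.30 ± 0.09 with APL-9796 (SE; edgeR FDR 0.0171) and -0.39 ± 0.09 with IgG (SE; edgeR FDR 0.00254). The call with APL-9796 was lost without female normoxia 8 and 9 (-0.24, edgeR FDR 0.0968), without male APL-9796 6 (-0.25, edgeR FDR 0.0533) and without female APL-9796 12 (-0.26, edgeR FDR 0.0503). Restricted to run A, Pde7b was called with APL-9796 (-0.36, edgeR FDR 0.0154) and not with IgG (-0.35, edgeR FDR 0.077).

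Pde1a and Pde2a were called with APL-9796, and with IgG both missed the threshold, Pde2a narrowly. Pde1a, a calmodulin-dependent enzyme that degrades both messengers, ran from 10.1 to 19.3 CPM with APL-9796 (median 13.9), from 10.0 to 19.1 CPM with IgG (median 12.2) and from 8.18 to 15.9 CPM in normoxia (median 10.3). Its log2 fold change was 0.34 ± 0.11 with APL-9796 (SE; edgeR FDR 0.0197) and 0.17 ± 0.11 with IgG (SE; edgeR FDR 0.304). Pde2a, an enzyme that cGMP stimulates, ran from 44.2 to 58.9 CPM with APL-9796 (median 49.3), from 39.1 to 57.6 CPM with IgG (median 48.0) and from 30.2 to 51.8 CPM in normoxia (median 40.6). Compared with normoxia, its log2 fold change was 0.30 ± 0.08 with APL-9796 (SE; edgeR FDR 0.0071) and 0.23 ± 0.08 with IgG (SE; edgeR FDR 0.0519). Neither gene differed between the hypoxic arms past the threshold: the log2 difference of APL-9796 from IgG was 0.17 (95% interval -0.04 to 0.38) for Pde1a and 0.07 (-0.09 to 0.23) for Pde2a. In run A alone, neither Pde1a (0.38, edgeR FDR 0.0576) nor Pde2a (0.23, edgeR FDR 0.0681) passed with APL-9796. The IgG value of Pde2a passed in 6 of 11 alternatives, among them the run as a term (0.27, edgeR FDR 0.0231) and the fit without female normoxia 8 and 9 (0.30, edgeR FDR 0.0106), and in 13 of 36 leave-one-out fits.

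Pde5a and Pde3a encode the targets of drugs in clinical use, sildenafil for the cGMP-specific enzyme of Pde5a and milrinone for the enzyme of Pde3a, which degrades cAMP and is inhibited by cGMP. Pde5a ran from 66.7 to 257 CPM with APL-9796 (median 211), from 132 to 226 CPM with IgG (median 194) and from 107 to 205 CPM in normoxia (median 171). It was not called, at 0.26 with APL-9796 (95% interval 0.03 to 0.50; edgeR FDR 0.113) and 0.17 with IgG (-0.06 to 0.41; edgeR FDR 0.359). Male APL-9796 4 held the lowest value of any arm, and without it Pde5a was called with APL-9796 at 0.35 ± 0.08 (SE; edgeR FDR 0.00135). It was also called in run A alone (0.32, edgeR FDR 0.00517), which does not hold that library either. With APL-9796, Pde5a was called in 2 of 11 alternatives, run A among them, and in 1 of 36 leave-one-out fits. It missed the threshold with the run as a term (0.19, edgeR FDR 0.222) and without female normoxia 8 and 9 (0.21, edgeR FDR 0.283). Pde3a had medians of 50.9 CPM with APL-9796, 45.6 CPM with IgG and 53.0 CPM in normoxia, with log2 fold changes of -0.12 (-0.35 to 0.12) and -0.24 (-0.47 to 0.00), neither called by edgeR. Pde3b, its relative of fat and other tissues, had intervals of -0.14 to 0.10 with APL-9796 and -0.07 to 0.18 with IgG.

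The remaining phosphodiesterases tested, Pde1b, Pde4a, Pde6d, Pde8a, Pde8b and Pde10a, were not called. Pde6d, which the naming rule includes, encodes a carrier of prenylated proteins and not a hydrolytic enzyme. Pde10a, known from striatal neurons, varied most of the tested members between libraries of a group (median coefficient of variation 63.1%), and its interval spanned -0.43 to 1.14 with APL-9796 and -0.32 to 1.22 with IgG. Pde1c, Pde6a, Pde6b and Pde6c, the last 3 of which are known from photoreceptors, were below the filter. Over the 9 members below it, pooled counts ran from 0 to 58 in the APL-9796 arm, from 1 to 60 in the IgG arm and from 1 to 59 in the normoxic arm, led in each by Pde6a.

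The study asked whether blocking ZIP12 alters the hypoxic lung, which here is the comparison of APL-9796 with IgG in hypoxia. No tested member passed the threshold: edgeR called 0 of 34 members, and DESeq2 and limma-voom also called 0. The smallest edgeR FDR among all 15570 genes was 0.967, with 626 genes at an unadjusted p under 0.05, of which 1 was a member. The 95% interval of the log2 difference lay within 0.5 of 0 for 31 of the 34 members, and the exceptions were Gucy2e, Pde10a and, by its upper bound of 0.50, Pde4b. The difference was 0.18 for Nos3 (-0.09 to 0.44), 0.16 for Adcy4 (-0.03 to 0.35), -0.07 for Gucy1b3 (-0.23 to 0.09), 0.19 for Pde4b (-0.12 to 0.50), 0.05 for Pde7a (-0.15 to 0.26) and 0.09 for Pde5a (-0.15 to 0.32). Differences of these sizes remain possible at this spread, and a p that misses the threshold does not show that the arms are alike.

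The member at an unadjusted p under 0.05 was Prkar2b, a regulatory subunit of protein kinase A known from fat and brain, named here after its values were seen. It had medians of 44.5 CPM with APL-9796 and 47.2 CPM with IgG, beside 48.6 CPM in normoxia. The log2 difference of APL-9796 from IgG was -0.22 (95% interval -0.41 to -0.04; edgeR FDR 0.967). Its highest value, 91.2 CPM, was in male IgG 6, the library with the highest sums of cardiac and adipocyte markers. Without that library the difference was -0.13 (-0.28 to 0.02; edgeR FDR 0.977). The part of that library's tissue content in the difference was not tested.

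**Figure D3:**
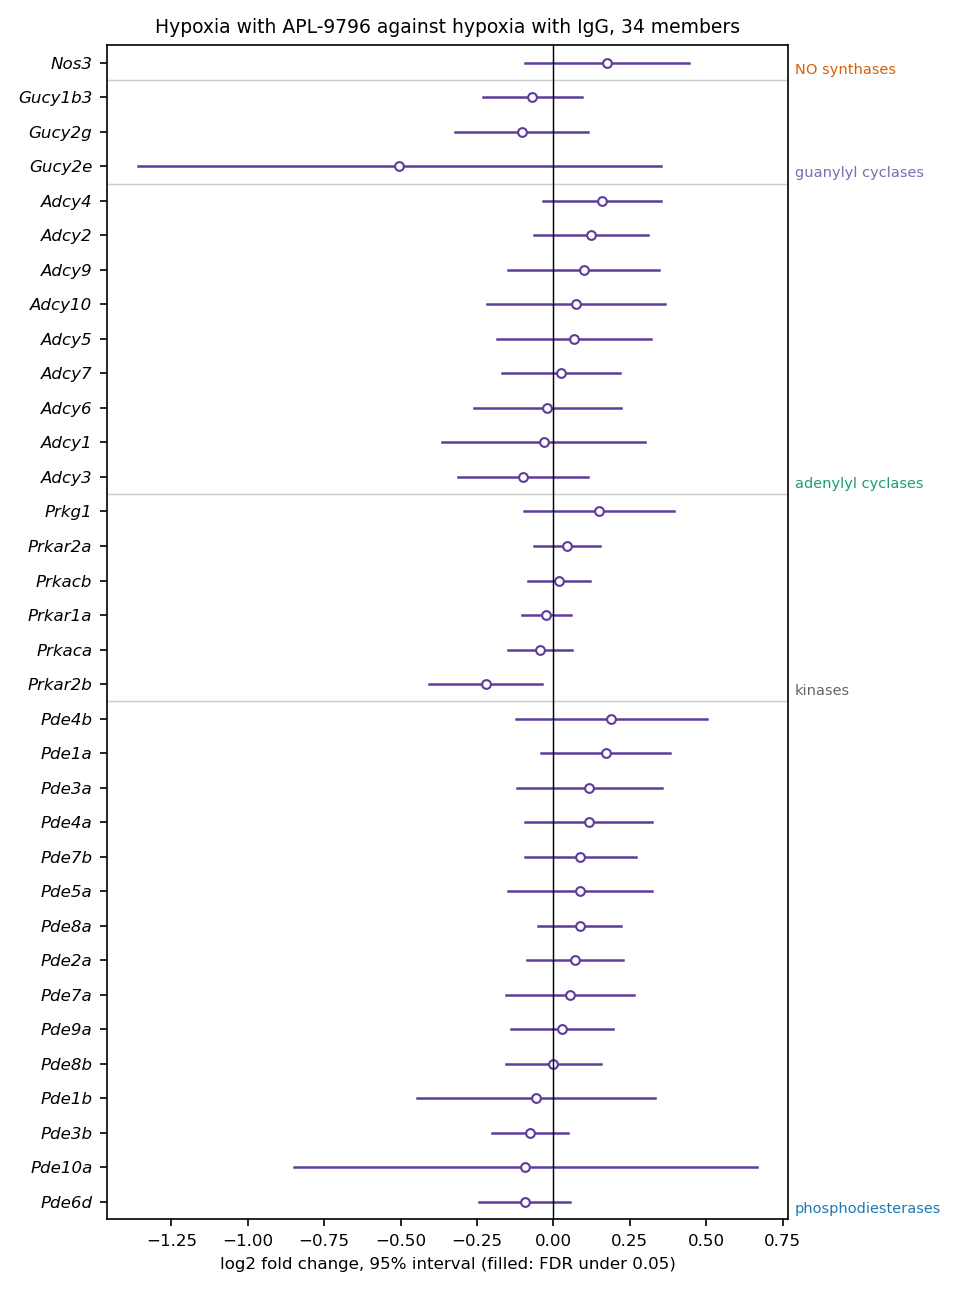
Log2 difference (x axis) between hypoxia with APL-9796 and hypoxia with IgG for the 34 tested members (rows, by class), with 95% intervals from edgeR; open points did not pass an FDR of 0.05. All points are open, and 31 intervals lie within 0.5 of 0.

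Females and males were compared because each arm held 6 of each. Nos3 was called in each sex: the log2 fold change with APL-9796 was 1.04 ± 0.19 in females (SE; edgeR FDR 0.000283) and 0.91 ± 0.19 in males (SE; edgeR FDR 0.00231), and with IgG it was 0.82 ± 0.19 in females (SE; edgeR FDR 0.00406) and 0.78 ± 0.19 in males (SE; edgeR FDR 0.011). With APL-9796, 10 members rose and 3 fell in females, against a background of 22.6% of all genes called (10.1% higher and 12.5% lower), and 2 rose and 0 fell in males, against 4.19% (2.79% higher and 1.4% lower). With IgG, 4 rose and 2 fell in females, against 15.5% (7.23% higher and 8.27% lower), and 3 rose and 0 fell in males, against 3.1% (1.88% higher and 1.22% lower). Females therefore had more calls over all genes as well as among the members. The runs were not balanced between the sexes. Run A held 6 male and 3 female normoxic libraries, 5 male and 2 female IgG libraries, and 5 APL-9796 libraries of each sex. The part of the run in these counts per sex was not tested. The difference between the sexes in the response was itself not called for any member. With IgG against normoxia, 0 of 34 passed in edgeR, over a background of 0.0128% of all genes (0.00642% in each direction). There 3 members had an unadjusted p under 0.05, beside 2480 of all 15570 genes. For APL-9796 against IgG 0 of 34 passed in edgeR, over a background of 0%. There 4 members had an unadjusted p under 0.05, beside 685 of all 15570 genes.

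The member with the smallest p in both of these tests was Gucy1b3. Its mean level in hypoxia with APL-9796 was 185 ± 23.7 CPM in females and 160.0 ± 33.1 CPM in males. In hypoxia with IgG it was 163 ± 19.96 CPM in females and 199.9 ± 27.3 CPM in males, and in normoxia 141 ± 20.3 CPM in females and 129 ± 6.05 CPM in males (SD, n = 6 each). The response to hypoxia with IgG was smaller in females by 0.42 on the log2 scale (95% interval 0.10 to 0.75 smaller; edgeR FDR 0.205). The difference of APL-9796 from IgG was 0.50 more in females than in males (0.18 to 0.83; edgeR FDR 0.963). Neither passed the threshold.

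**Figure D4:**
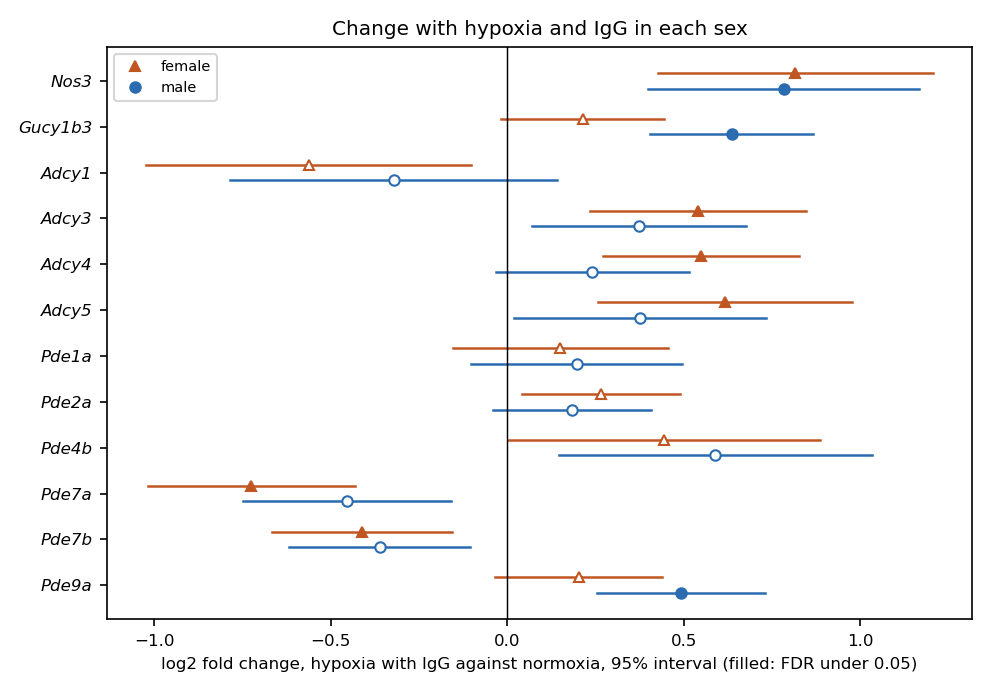
Log2 fold change (x axis) of hypoxia with IgG against normoxia in females (orange triangles, upper) and males (blue circles) for the 12 members called in a comparison of arms (rows), with 95% intervals from edgeR; filled points passed an FDR of 0.05. Nos3 is filled in both sexes, at 0.82 in females and 0.78 in males, and the intervals of the sexes overlap in every row.

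In normoxia, 4 members differed between females and males (3 lower and 1 higher in females), which is 11.8% of those tested beside a background of 10.6% (5.55% higher and 5.06% lower in females). Nos3 averaged 26.8 ± 10.9 CPM in females and 39.9 ± 6.01 CPM in males (SD, n = 6 each), a log2 difference of -0.58 ± 0.19 (SE; edgeR FDR 0.0484). Adcy4 averaged 32.5 ± 8.83 CPM in females and 46.4 ± 3.31 CPM in males (-0.51, edgeR FDR 0.0209), and Adcy2 averaged 39.9 ± 8.27 CPM in females and 52.9 ± 4.53 CPM in males (-0.40, edgeR FDR 0.0428). Pde7a averaged 77.5 ± 21.2 CPM in females and 57.4 ± 11.7 CPM in males (0.43, edgeR FDR 0.0483). Without female normoxia 8 and 9, none of the 4 passed: Nos3 stood at -0.35 (edgeR FDR 0.437), Adcy4 at -0.37 (0.251) and Pde7a at 0.29 (0.438), all smaller, while Adcy2 stood at -0.47 (0.135), which is larger. In run A alone none passed, with Nos3 at -0.50 (edgeR FDR 0.243), Adcy4 at -0.38 (0.176), Adcy2 at -0.22 (0.363) and Pde7a at 0.31 (0.276). With the run as a term, Adcy4 passed (-0.50, edgeR FDR 0.0484) and the other 3 did not.

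Genes that work beside the members were counted in 10 lists with 63 rows, of which 59 were tested. These lists too were chosen with earlier results of these data known. With APL-9796 against normoxia 12 rose and 7 fell, with IgG against normoxia 11 rose and 4 fell, and between APL-9796 and IgG edgeR called 0, beside 18%, 12.5% and 0% of all genes called in either direction. Receptors that raise cAMP gave 4 rises and 0 falls of 12 in each hypoxic arm. Adrb1, the beta-1 adrenergic receptor, averaged 40.3 ± 9.49 CPM with APL-9796, 45.2 ± 6.18 CPM with IgG and 23.2 ± 7.04 CPM in normoxia (edgeR FDR 5.85e-06 with APL-9796 and 1.99e-07 with IgG). Ptgir, the prostacyclin receptor, averaged 26.7 ± 3.67 CPM with APL-9796, 27.8 ± 4.78 CPM with IgG and 19.5 ± 4.78 CPM in normoxia (edgeR FDR 0.00119 and 0.000318). Other receptors that rose were Adcyap1r1, the receptor of the peptide PACAP, with log2 fold changes of 1.57 and 1.31, and Adora2a, an adenosine receptor, with 0.52 and 0.54. Adora2a, Arg2, Pts and Atf1 are named after their values were seen, beyond the 3 smallest p-values of their lists. Of the G protein alpha subunits, 1 of 3 was called: Gnai3, which inhibits adenylyl cyclase, fell with APL-9796 (-0.26, edgeR FDR 0.0129).

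Of 14 genes for NO substrate, cofactor and regulation, 2 rose and 3 fell with APL-9796, and 2 rose and 1 fell with IgG. Ddah1, which degrades the NO synthase inhibitor asymmetric dimethylarginine, averaged 54.4 ± 8.38 CPM with APL-9796, 57.8 ± 8.13 CPM with IgG and 93.2 ± 9.07 CPM in normoxia (SD, n = 12 each). Compared with normoxia, its log2 fold change was -0.78 ± 0.08 with APL-9796 (SE; edgeR FDR 3e-09) and -0.69 ± 0.08 with IgG (SE; edgeR FDR 4.11e-08). The arginine transporter gene Slc7a1 rose (0.54 with APL-9796 and 0.43 with IgG), as did Gch, now Gch1, for the enzyme that starts synthesis of the cofactor tetrahydrobiopterin (0.34 and 0.28). Arg2, for an arginase, and Pts, for a later enzyme of the cofactor pathway, fell with APL-9796 (-1.16 and -0.34). The receptors of natriuretic peptides, which are guanylyl cyclases outside the naming rule, gave 0 calls of 2.

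Downstream, the 8 substrates of the kinases gave 2 rises and 2 falls with APL-9796, and 2 rises and 1 fall with IgG. Mrvi1, now Irag1, a target of cGMP-dependent protein kinase in smooth muscle, averaged 108 ± 13.6 CPM with APL-9796, 89.9 ± 12.2 CPM with IgG and 69.7 ± 14.6 CPM in normoxia (log2 fold change 0.64, edgeR FDR 1.87e-06, and 0.38, edgeR FDR 0.00314). Vasp, a cytoskeletal substrate, rose by 0.22 and 0.25, and Ppp1r1b, a phosphatase inhibitor known from neurons, fell by 0.78 and 0.68 on the log2 scale with APL-9796 and IgG. Atf1, a transcription factor that protein kinase A activates, fell by 0.15 with APL-9796. Among the 3 genes for protein kinase A inhibitors, Pkig rose in both arms (0.43 and 0.48), while Pkia rose (0.41) and Pkib fell by 0.43 with APL-9796. Of 7 other effectors of cyclic nucleotides, Rapgef2 rose in both arms (0.59 and 0.45) and Rapgef4, a cAMP-activated exchange factor, fell by 0.30 with IgG. Of 7 A-kinase anchoring proteins, Akap12 fell by 0.44 with IgG. Abcc5, which exports cyclic nucleotides, rose by 0.34 with APL-9796 and 0.31 with IgG. The 2 phosphodiesterase subunits outside the rule gave 0 calls.

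Markers of several cell types moved between the arms. Alveolar type II markers were lower, with 4 of 4 falling with APL-9796 and 3 of 4 with IgG, at a summed 12455 to 18457 CPM with APL-9796, 14695 to 20053 CPM with IgG and 16296 to 41656 CPM in normoxia. Of 6 adipocyte markers, 1 rose with APL-9796 and 5 with IgG, and 0 were called between APL-9796 and IgG. Their sum was 585 CPM in male IgG 6, against medians of 187 CPM with IgG, 178 CPM with APL-9796 and 113 CPM in normoxia. The part of male IgG 6 in the 5 rises was not tested. Pericyte and fibroblast markers, 8 in number, gave 3 rises and 1 fall with APL-9796 and 2 rises and 1 fall with IgG. Alveolar type I, lymphocyte and platelet markers gave only falls (1, 1 and 2 with APL-9796, and 2, 1 and 3 with IgG), and macrophage, skeletal muscle and ciliated cell markers gave 1, 3 and 0 rises with APL-9796 and 0 calls with IgG. The skeletal muscle sum was 2433 CPM in male APL-9796 5, against a median of 27.9 CPM in its arm, and in a fit without that library, chosen after seeing the data, 0 of these 4 markers were called (edgeR FDR 0.135 to 0.965). The count of members without it was 9 higher and 3 lower with APL-9796, the same as with all libraries. The count over all genes in that fit is not given here. No marker list had a gene at 0 in all libraries. The part of cell composition in the members' changes was not tested.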

How the data were processed

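RNA of rat lung was sequenced in 36 libraries, and the authors deposited counts per gene, with 1 row for each of 27308 genes. No source used here names the aligner, counter, strandedness or assembly; DESeq2 1.24.0 stands in the submitters' processing notes. A row holding a total, at 0 counts, was left out. Libraries were grouped by their labels, and an information sheet gave the same group for 36 of 36. The members and lists were chosen with earlier results of these data known. Given by name are the members past the threshold in a comparison of arms, a fixed set of well-known members whatever their result (such as Prkg1, Prkaca, Pde3a, Pde5a and Pde10a), other members where an interval was useful, and at most the 3 smallest p-values of each pathway list; exceptions are marked as chosen after their values were seen.

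Counts as deposited were tested with edgeR 4.0.16 (R 4.3.3), quasi-likelihood and robust, with TMM scaling and the default filter on low counts (filterByExpr), in 1 model of 6 groups over 36 libraries, with contrasts that weight the sexes equally. P-values were adjusted by Benjamini-Hochberg over all 15570 genes tested, with a threshold of 0.05. CPM values use TMM-scaled library sizes. DESeq2 1.42.0, limma 3.58.1 (voom with quality weights), other scalings and filters, a run term, run A alone, a replicate block and leaving out libraries were alternatives. Floors of 3 counts cover counting error only. The fit was tested on simulated data.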

Additional observations from a re-analysis of the deposited data

Results flagged for a closer look

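For the 12 members called in a comparison of arms, the highest and lowest library of each group of 6 was set against the others with Dixon's critical value of 0.625, in 72 checks. Chance flags about 1 in 20 groups, and 5 libraries stood far from the rest of their group. Adcy3 was at 52.3 CPM in female IgG 7, against 27.7 to 35.7 CPM in the other 5 libraries. Adcy3 was also at 34.3 CPM in female normoxia 7, against 19.6 to 23.6 CPM in the others. Gucy1b3 was at 232 CPM in female APL-9796 8, against 164 to 186 CPM in the others. Pde4b was at 90.3 CPM in male IgG 5, against 151 to 184 CPM in the others. Pde9a was at 71.3 CPM in male APL-9796 4, against 43.8 to 49.7 CPM in the others. The cause of these values was not tested.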

How the results depend on the processing

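For the count of members, the IgG comparison with normoxia moved most. Run A alone called 3 members as higher with IgG, beside 7 with all libraries, and 1 as lower, beside 2. Calls over all genes fell there too, to 464 higher and 261 lower of 16128 genes tested. Limma-voom called 6 as lower, and leaving out female normoxia 8 and 9 called 4 as lower. Over all genes, limma-voom called 1331 of 15570 as lower with IgG, beside 964 in the main fit. Leaving out female normoxia 8 and 9 called 657 of 15744 as lower. Leaving out each library in turn gave 7 to 9 members higher and 2 to 3 lower with IgG. With APL-9796 it gave 9 to 12 higher and 2 to 3 lower, and for APL-9796 against IgG 0. The counts over all genes in these fits are not given here, so these ranges describe the members only. Of the 21 called values of named members, 0 changed sign under any alternative or with any library left out; of the 36 values not called, 9 did, and each of these 9 was within 0.10 of 0 on the log2 scale with all libraries. Over all genes, the split of higher to lower calls with IgG was 983 to 964, and 1121 to 657 without female normoxia 8 and 9. With APL-9796 it was 1413 to 1391, and 1309 to 595 without them. With DESeq2's size factors the splits were 1048 to 830 with IgG and 1510 to 1208 with APL-9796. The replicate block gave 7 members higher and 3 lower with IgG, 9 higher and 3 lower with APL-9796, and 0 between APL-9796 and IgG. Over all 15570 genes it gave 969 higher and 839 lower with IgG, and 1380 higher and 1226 lower with APL-9796. Same-numbered libraries did not deviate together, with 9 of 36 correlations over 0.1 and a median of 0.0485, so the numbers were not taken as pairs. Gucy2e, with 69 to 104 counts pooled over the 12 libraries of an arm, is limited by depth.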
